A study of Mus musculus with 6 samples.

Results

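Glucocorticoid-responsive genes are described here as a set of 8 genes: Tsc22d3, Mt1, Mt2, Fkbp5, Klf9, Sgk1, Ddit4 and Nr3c1, taken by symbol from the 54232 genes of a count table. The set was chosen by the counts of Tsc22d3 and Mt1, which varied between libraries within both groups. That spread is therefore given as a description without a test, and no value is named as the reason for the other 6 genes. All 8 passed the filter on low counts.

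The 6 libraries came from leukaemic B cells sorted from the spleens of wild-type C57BL/6J recipients that had been injected with splenic mononuclear cells of Eµ-TCL1 mice. Eµ-TCL1 is a transgene that drives the TCL1 oncogene in B cells and gives a CD5-positive leukaemia resembling chronic lymphocytic leukaemia (CLL). The CK1i group (3 libraries) was given oral doses of 50 mg/kg PF-670462, which blocks the delta and epsilon forms of casein kinase 1, dissolved in 10% kolliphor/PBS, and the CTRL group (3 libraries) was given only that vehicle. Both groups were dosed for 5 days and rested for 2, from day 5 after cell transfer and for 8 weeks in all. All libraries carry the leukaemia graft and 1 batch label. The age of the recipients, the hour of killing and any corticosterone measurement are not given in the sources used here, and no source says that each library is 1 mouse. The p-values therefore refer only to variation among these 6 samples, which may be technical.

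Glucocorticoids enter the cell and bind the glucocorticoid receptor, the product of Nr3c1, which is held in the cytosol by HSP90 and its cochaperones. The bound receptor moves to the nucleus and switches on genes at glucocorticoid response elements. Among the direct targets are Tsc22d3, which encodes the leucine zipper protein GILZ, the receptor cochaperone Fkbp5, which damps receptor activity, the kinase gene Sgk1, the transcription factor gene Klf9 and the mTORC1 inhibitor gene Ddit4. Mt1 and Mt2 encode metallothioneins, small metal-binding proteins induced by zinc through the factor MTF1 and also by glucocorticoids. In lymphocytes glucocorticoids cause apoptosis, and they are used against lymphoid leukaemias. Adrenal glucocorticoid release follows a daily rhythm and rises with stress.

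Promoter windows from RefSeq (GRCm38.p6, 250 bases before to 50 after an annotated start) were available for 7 of the 8 genes, all but Nr3c1, in 14 windows. A window is shown for 4 of the 5 genes that shared their highest libraries, those with a motif (the Klf9 window held none of those searched). The palindromic glucocorticoid response element, a pair of facing TGTTCT arms with 3 bases between them, occurred in the fifth of 6 Sgk1 windows and in 3 of all 32851 windows (0.00913%), both strands searched. In Sgk1 it begins 189 bases before the start at position 21993890. The capitals in the Sgk1 sequence mark this element. In the Tsc22d3 sequence they mark a single TGTTCT arm, which occurred in 19% of all windows. In Mt1 and Mt2 they mark cores of the metal response element (TGCGCNC or TGCACNC, either strand), found 3 times in Mt1 and 4 times in Mt2. At least 3 such cores were present in 1.97% of all windows. Relative to the start, the Mt1 cores begin at bases -23, 2 and 20, and the Mt2 cores at -223, -128, -50 and 4. The printed Mt1 and Mt2 stretches include 30 bases from the RefSeq start onward, while those of Sgk1 and Tsc22d3 end before it. For Mt2 that start, 94172618, lies before the GENCODE gene start given below, 94172664. The whole printed Mt2 stretch therefore lies before the GENCODE start. The stretches are chr10:21993640-21993889 and chr8:94178839-94179118 and chr8:94172368-94172647 on the plus strand and chrX:140600523-140600772 on the minus strand, each printed in the direction of its gene.
Sgk1: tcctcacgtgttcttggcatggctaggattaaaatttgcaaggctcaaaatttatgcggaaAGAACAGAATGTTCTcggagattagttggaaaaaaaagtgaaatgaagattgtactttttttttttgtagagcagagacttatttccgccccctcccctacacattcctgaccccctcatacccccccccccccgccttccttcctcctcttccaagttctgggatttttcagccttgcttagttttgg
Tsc22d3: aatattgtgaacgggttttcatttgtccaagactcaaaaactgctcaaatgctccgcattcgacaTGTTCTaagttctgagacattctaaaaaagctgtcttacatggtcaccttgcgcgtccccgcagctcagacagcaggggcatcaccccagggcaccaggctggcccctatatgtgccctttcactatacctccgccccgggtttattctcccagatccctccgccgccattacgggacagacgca
Mt1: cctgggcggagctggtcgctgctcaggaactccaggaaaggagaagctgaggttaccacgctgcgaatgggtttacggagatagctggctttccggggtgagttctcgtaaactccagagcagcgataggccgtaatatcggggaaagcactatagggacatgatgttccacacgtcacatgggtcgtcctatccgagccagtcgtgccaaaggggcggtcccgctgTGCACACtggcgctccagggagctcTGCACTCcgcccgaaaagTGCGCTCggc
Mt2: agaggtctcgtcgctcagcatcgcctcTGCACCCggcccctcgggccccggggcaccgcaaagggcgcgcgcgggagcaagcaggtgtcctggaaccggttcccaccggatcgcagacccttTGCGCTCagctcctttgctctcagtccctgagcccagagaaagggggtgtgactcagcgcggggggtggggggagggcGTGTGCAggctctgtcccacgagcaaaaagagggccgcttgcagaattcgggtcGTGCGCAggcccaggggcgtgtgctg

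No full element was present in the windows of Tsc22d3, Mt1, Mt2, Fkbp5, Klf9 or Ddit4, which says only that those letters are not in these windows. An E box (CACGTG), the site of clock factors, was present in the Fkbp5 window and in the fifth Sgk1 window, and in 7.15% of all windows. The TATA box (TATAAA) was present in 2 Sgk1 windows and in 13.6% of all windows. Counts from the 3' end do not tell which start of Sgk1, Tsc22d3 or Mt2 was used.

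The 6 libraries held 2472064 to 3105137 counts each. A single count equalled 0.326 to 0.401 CPM, the unit used below, which scales counts to library totals adjusted by TMM. On the first principal component of all tested genes (28% of the variance), CTRL replicate 1 lay at 31.4 and the other 5 libraries between -12.4 and 4.68. All 8 B-cell markers were detected in every library, at unequal levels. Ms4a1 had 2177 to 2589 CPM in CK1i and 2123.3 to 2187 CPM in CTRL, while Cd79a had 8.88 to 14.4 CPM in CK1i and 12.1 to 17.6 CPM in CTRL. Cd5 had 27.7 to 31.7 CPM in CK1i and 25.9 to 34.3 CPM in CTRL. The 12 genes of the T-cell list summed to 290 to 367 CPM in CK1i and 293 to 405 CPM in CTRL, nearly all of it Cd2 and Lck. Trac held 99 counts over all libraries, and the T-cell receptor complex genes Cd3d, Cd3e and Cd3g held 11, 6 and 8. Cd2 had 235, 170.3 and 190.1 CPM in CK1i replicates 1 to 3 and 293, 185 and 198 CPM in CTRL replicates 1 to 3, with r = 0.86 to Tsc22d3. For the other tested genes of the T-cell list, Lck and Trac, r to Tsc22d3 was -0.59 and 0.26. The macrophage markers Cd14 and Spic were at 0, and the 13 genes of the macrophage list summed to 36.9 to 47.1 CPM in CK1i and 27.7 to 31.5 CPM in CTRL, most of it Cd68. The plasma cell list summed to 917 to 1969 CPM in CK1i and 1528 to 2394 CPM in CTRL. The part of other cell types in the results below was not tested. In bulk samples fewer cells of a type and less RNA per cell cannot be told apart.

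No glucocorticoid-responsive gene differed between the CK1i and CTRL groups beyond the spread between libraries. Of the set, 5 genes, Tsc22d3, Mt1, Mt2, Klf9 and Sgk1, had their 3 highest values in the same libraries, CK1i replicate 1, CTRL replicate 1 and CTRL replicate 3. Fkbp5, Ddit4 and Nr3c1 did not follow this order.

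Tsc22d3 (ENSMUSG00000031431, chromosome X, 140539528 to 140600659 on the minus strand) had 1210, 475 and 414 CPM in CK1i replicates 1 to 3 and 1307, 608 and 843 CPM in CTRL replicates 1 to 3. CK1i replicate 1 and CTRL replicate 1 were the 2 highest libraries, and the groups overlapped. The other CK1i libraries lay below all CTRL libraries. The ratio of highest to lowest library was 2.92 in CK1i and 2.15 in CTRL. Counting error was small beside this, with 95% Poisson intervals of 1171 to 1249 CPM in CK1i replicate 1 and 389 to 440 CPM in CK1i replicate 3. CK1i libraries averaged 699 ± 443 CPM and CTRL libraries 919 ± 356 CPM (SD, n = 3 each). The log2 fold change of CK1i over CTRL was -0.39 ± 0.53 (SE; edgeR adjusted p = 0.999). It was -1.05 without CK1i replicate 1 (adjusted p = 0.558), the lowest adjusted p over 11 alternatives, which reached 1.00. Without CTRL replicate 1 it was -0.05.

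**Figure D1:**
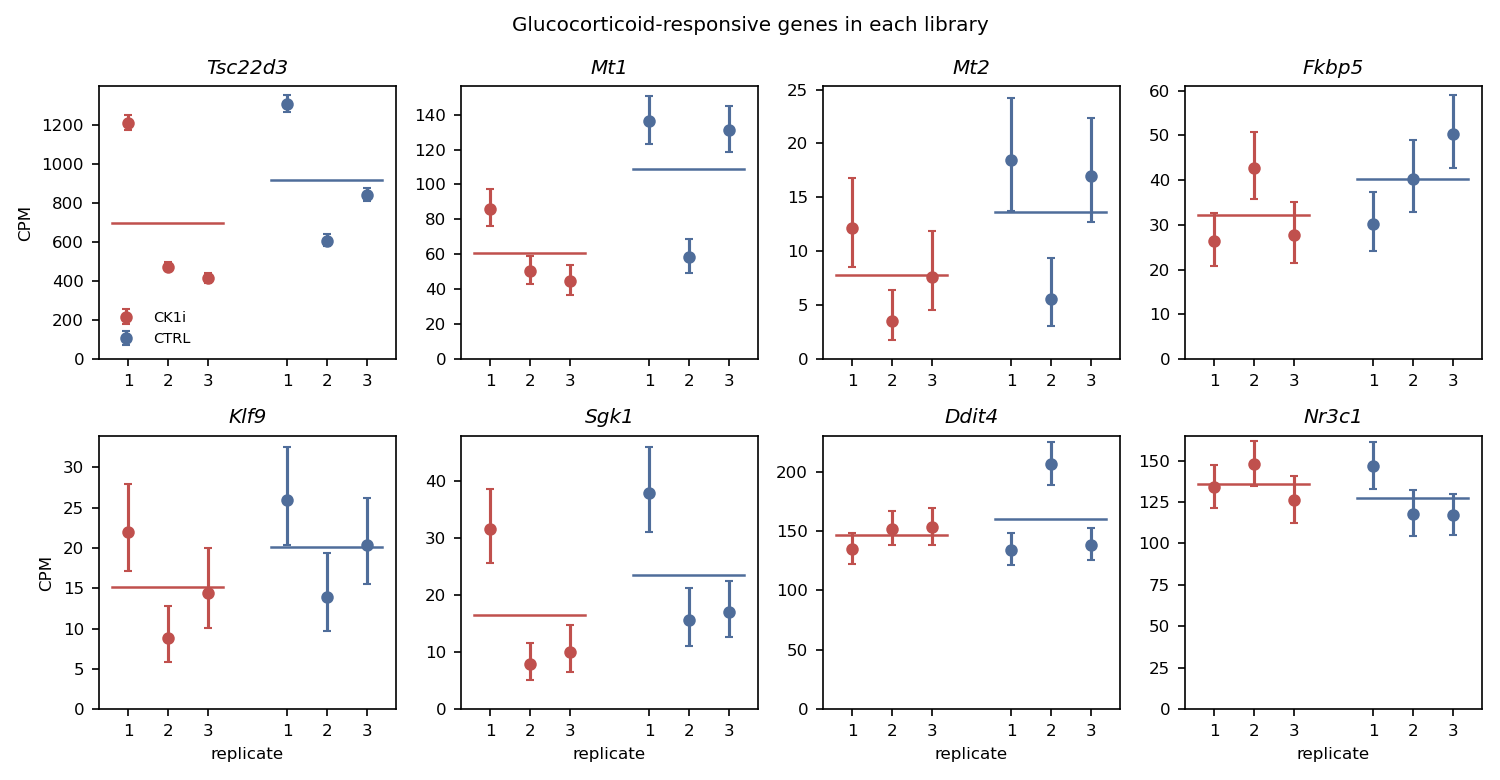
CPM of each gene in the 3 CK1i libraries (red, left) and the 3 CTRL libraries (blue, right). Points are libraries, error bars are exact 95% Poisson intervals for counting error, and horizontal lines are group means. Tsc22d3 stands at 1210 CPM in CK1i replicate 1 and at 1307 CPM in CTRL replicate 1, while Nr3c1 stays between 117 and 148 CPM.

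The metallothionein genes lie close together on the plus strand of chromosome 8, Mt2 at 94172664 to 94173568 and Mt1 at 94179082 to 94180327. Mt1 (ENSMUSG00000031765) had 86.2, 50.6 and 44.9 CPM in CK1i replicates 1 to 3 and 136, 58.7 and 131 CPM in CTRL replicates 1 to 3. CTRL replicates 1 and 3 were the highest and CK1i replicate 1 came next. The groups overlapped only because CK1i replicate 1 lay above CTRL replicate 2. Mt1 had the lowest unadjusted p of the 8 genes. CK1i libraries averaged 60.6 ± 22.4 CPM and CTRL libraries 108.7 ± 43.4 CPM (SD, n = 3 each). Its log2 fold change was -0.84 ± 0.38 (SE; 95% interval -1.76 to 0.07; unadjusted p = 0.0658, edgeR adjusted p = 0.999). Over the 11 alternatives the adjusted p lay between 0.336 and 1.00, lowest without CTRL replicate 2, where the log2 fold change was -1.15.

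Mt2 (ENSMUSG00000031762) had 12.2, 3.59 and 7.62 CPM in CK1i replicates 1 to 3 and 18.5, 5.59 and 17.0 CPM in CTRL replicates 1 to 3. Its order of libraries followed Mt1 in the 3 highest. With 11 to 52 counts per library the intervals were wide, 1.79 to 6.42 CPM in CK1i replicate 2 and 13.8 to 24.2 CPM in CTRL replicate 1. CK1i averaged 7.79 ± 4.30 CPM and CTRL 13.7 ± 7.05 CPM (SD, n = 3 each). For CK1i over CTRL the log2 fold change was -0.83 ± 0.49 (SE; edgeR adjusted p = 0.999), and it lay between -1.34 without CK1i replicate 1 and -0.47 without CK1i replicate 2. Mt3 and Mt4, the other metallothionein genes, had 0 counts in all libraries. Reads of 75 bases from the last 500 bases of Mt1 and Mt2 transcripts matched no other gene, and the antisense gene overlapping Mt2, Gm45774, held 0 counts.

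Sgk1 (ENSMUSG00000019970, chromosome 10, 21882184 to 21999903), whose product is a kinase that inactivates FOXO factors and the ubiquitin ligase NEDD4L, had 31.6, 7.83 and 10.0 CPM in CK1i replicates 1 to 3 and 38.0, 15.6 and 17.0 CPM in CTRL replicates 1 to 3. As for Tsc22d3, CTRL replicate 1 and CK1i replicate 1 stood above the rest and the other CK1i libraries were the lowest. CK1i averaged 16.5 ± 13.1 CPM and CTRL 23.5 ± 12.5 CPM (SD, n = 3 each). The estimated log2 fold change was -0.50 ± 0.64 (SE; edgeR adjusted p = 0.999). It was -1.41 without CK1i replicate 1 (adjusted p = 0.643, the lowest of 11 alternatives) and 0.03 without CTRL replicate 1, so the sign rested on 1 library.

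Klf9 (ENSMUSG00000033863, chromosome 19, 23141226 to 23168134), a zinc finger factor of the KLF family, had 22.0, 8.81 and 14.4 CPM in CK1i replicates 1 to 3 and 25.9, 14.0 and 20.4 CPM in CTRL replicates 1 to 3. Its groups overlapped. CK1i averaged 15.1 ± 6.64 CPM and CTRL 20.1 ± 5.98 CPM (SD, n = 3 each). Its log2 fold change was -0.42 ± 0.32 (SE; edgeR adjusted p = 0.999). Leaving out CK1i replicate 1 gave -0.81, leaving out CK1i replicate 2 gave -0.14, and leaving out CTRL replicate 1 gave -0.20.

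Fkbp5, Ddit4 and Nr3c1 varied less. Fkbp5 (ENSMUSG00000024222, chromosome 17, 28399094 to 28517527 on the minus strand) had 26.3, 42.7 and 27.7 CPM in CK1i replicates 1 to 3 and 30.2, 40.3 and 50.4 CPM in CTRL replicates 1 to 3. CK1i replicate 1, high for Tsc22d3, was the lowest library for Fkbp5. CK1i averaged 32.2 ± 9.11 CPM and CTRL 40.3 ± 10.1 CPM (SD, n = 3 each). The difference on the log2 scale was -0.32 ± 0.23 (SE; 95% interval -0.82 to 0.18; edgeR adjusted p = 0.999). With CK1i replicate 2 left out it was -0.58, with CTRL replicate 1 left out -0.49, and with CTRL replicate 3 left out -0.12. Of 4 annotated genes that overlap Fkbp5, 1 had 0 counts and 3 were not among the 54232 genes counted. Of its read-length words 0.0499% also matched other transcripts.

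Ddit4 (ENSMUSG00000020108, chromosome 10, 59949669 to 59951834 on the minus strand) had 135, 152 and 153 CPM in CK1i replicates 1 to 3 and 134, 206 and 139 CPM in CTRL replicates 1 to 3. CTRL replicate 2, low for Tsc22d3 and Mt1, was the highest. CK1i averaged 147 ± 10.4 CPM and CTRL 159.7 ± 40.5 CPM (SD, n = 3 each). The difference on the log2 scale was -0.12 ± 0.17 (SE; edgeR adjusted p = 0.999). Without CTRL replicate 1 it was -0.23, and without CTRL replicate 2 it was 0.10. Nr3c1 (ENSMUSG00000024431), the receptor gene, had 134, 148 and 126 CPM in CK1i replicates 1 to 3 and 147, 118 and 117 CPM in CTRL replicates 1 to 3. The groups overlapped. It was the 1 gene of the set with a positive estimate, at 0.10 ± 0.14 on the log2 scale (SE; 95% interval -0.21 to 0.41; edgeR adjusted p = 0.999). That estimate was 0.21 without CTRL replicate 1 and 0.03 without CK1i replicate 2.

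Over the set, 0 of the 8 genes passed an adjusted p of 0.05, beside 0% of all 10067 tested genes, and 0 of 8 had an unadjusted p under 0.05, beside 4.7% of tested genes. In 0 of 8 were the groups apart, beside 9.7% of tested genes, 5.22% with CK1i higher and 4.48% with CK1i lower. The log2 fold change was negative for 7 of the 8, beside 51.2% of tested genes, and 5 of the 7, Tsc22d3, Mt1, Mt2, Klf9 and Sgk1, share their 3 highest libraries, so these signs are not independent of each other. edgeR's quasi-likelihood test called 0 of the 10067 genes left by the filter, with 473 at an unadjusted p under 0.05, while limma-voom called 0 and DESeq2 8. With no filter edgeR called 2 genes higher and 1 lower. None of these tools called a gene of the set.

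**Figure D2:**
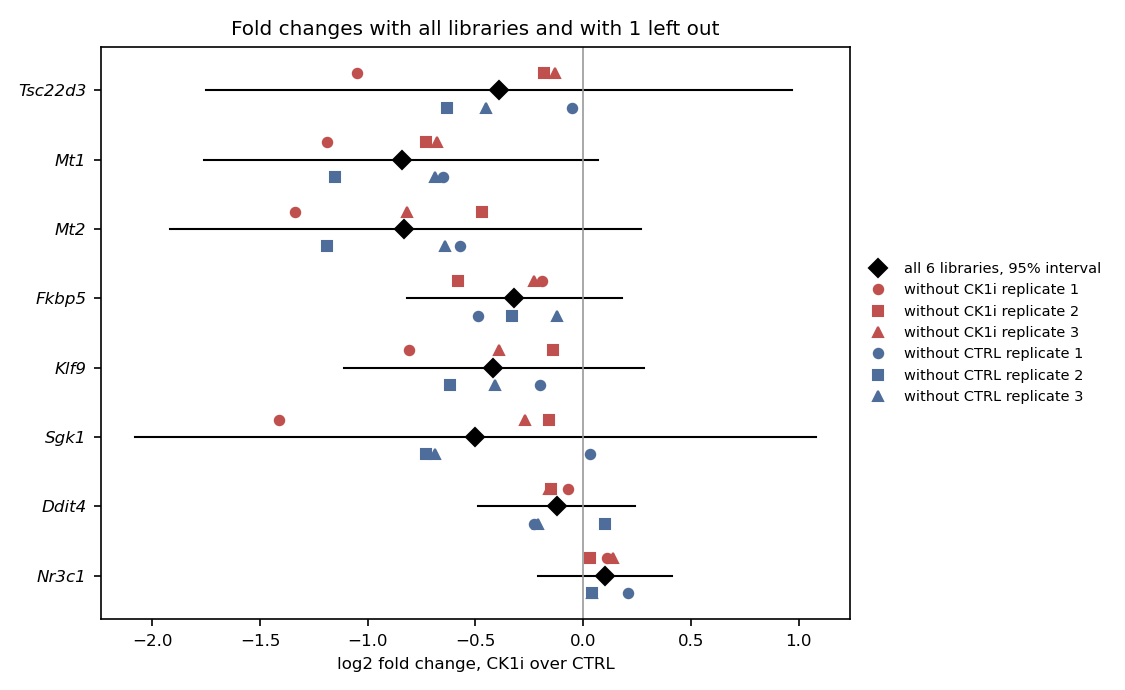
Log2 fold change of CK1i over CTRL for each gene with all 6 libraries (black diamonds, bars are 95% intervals) and with 1 library left out (red, a CK1i library; blue, a CTRL library). All 8 intervals include 0. Without CK1i replicate 1 the estimates of Tsc22d3, Mt1, Mt2, Klf9 and Sgk1 lie between -1.41 and -0.81.

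The spread within groups, by which Tsc22d3 and Mt1 had been chosen, was set beside that of all tested genes. The SD of log2 CPM within groups was 0.71 for Tsc22d3 and 0.60 for Mt1. For Sgk1 it was 0.87, for Mt2 0.85 and for Klf9 0.54, beside a median of 0.208 and a 95th percentile of 0.48 over the 8286 tested genes with a mean of at least 10 CPM. An SD at least as large was found in 0.471% of those genes for Sgk1, 0.543% for Mt2, 0.953% for Tsc22d3, 1.93% for Mt1 and 2.91% for Klf9. Fkbp5 had an SD of 0.37 (12.2%), Ddit4 of 0.25 (33.9%) and Nr3c1 of 0.15 (72.4%). Counting alone would give an SD of about 0.0327 for Tsc22d3, 0.101 for Mt1, 0.298 for Mt2 and 0.0755 for Nr3c1. For Sgk1 it would give about 0.217, for Klf9 0.215, for Fkbp5 0.146 and for Ddit4 0.0701. Without CK1i replicate 1 the SD of Tsc22d3 was 0.46 and that of Sgk1 0.58. Ddit4 had an SD of 0.09 without CTRL replicate 2, and Nr3c1 one of 0.09 without CTRL replicate 1.

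**Figure D3:**
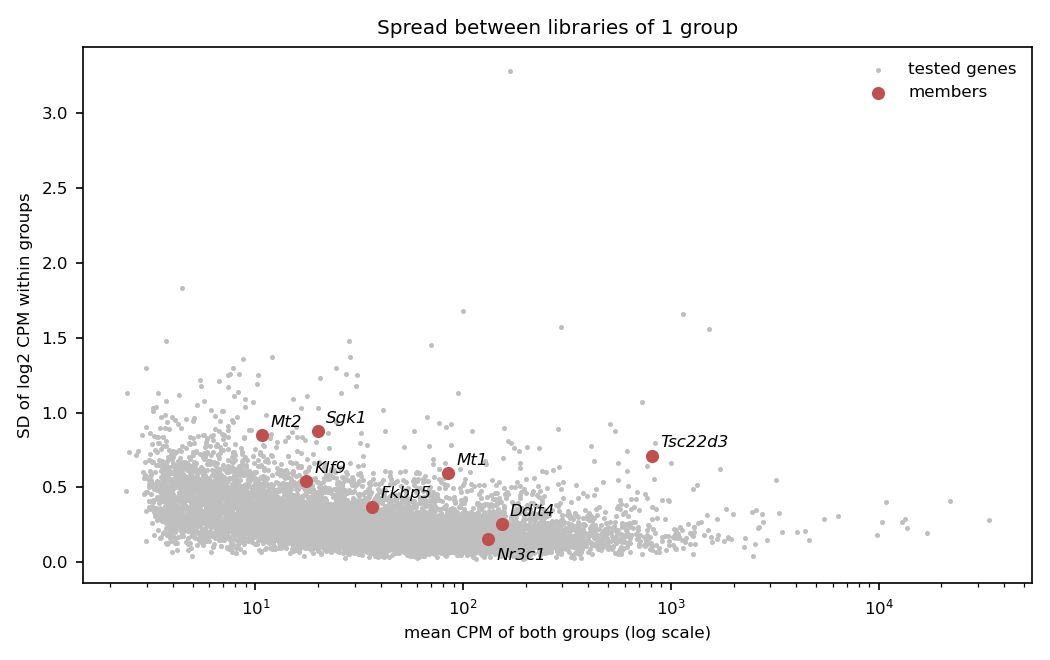
SD of log2 CPM between libraries of the same group (vertical axis) against mean CPM (horizontal axis, log scale) for all tested genes (grey) and the 8 genes (red). Tsc22d3, at a mean of 809 CPM, has an SD of 0.71, where the median of genes with at least 10 CPM is 0.208.

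The likeness of the other genes to Tsc22d3 across the 6 libraries is given as a description with no p, because the set was chosen by library values of Tsc22d3 and Mt1. All points share the same 6 libraries, in which the immediate early genes described below varied too. Sgk1 had Pearson's r = 0.96 and Spearman's rho = 0.94 with Tsc22d3. Klf9 had r = 0.87 and rho = 0.83, Mt1 had r = 0.86 and rho = 0.94, and Mt2 had r = 0.80 and rho = 0.77. For Fkbp5, itself a standard receptor target, r was -0.25 and rho -0.14. Ddit4 had r = -0.53 and rho = -0.83, and Nr3c1 had r = 0.20 and rho = 0.09.

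Without the 2 libraries farthest from the median of Tsc22d3, CTRL replicate 1 and CK1i replicate 3, r was 0.96 for Sgk1, 0.94 for Klf9, 0.84 for Mt2 and 0.70 for Mt1. For Fkbp5 it was then -0.61, for Ddit4 -0.55 and for Nr3c1 -0.27. With group means removed over all 6 libraries, r was 0.95 for Sgk1, 0.87 for Mt1, 0.84 for Klf9 and 0.75 for Mt2, and it was 0.41 for Nr3c1, -0.53 for Fkbp5 and -0.69 for Ddit4. The sign for Nr3c1 thus depended on which libraries were used.

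**Figure D4:**
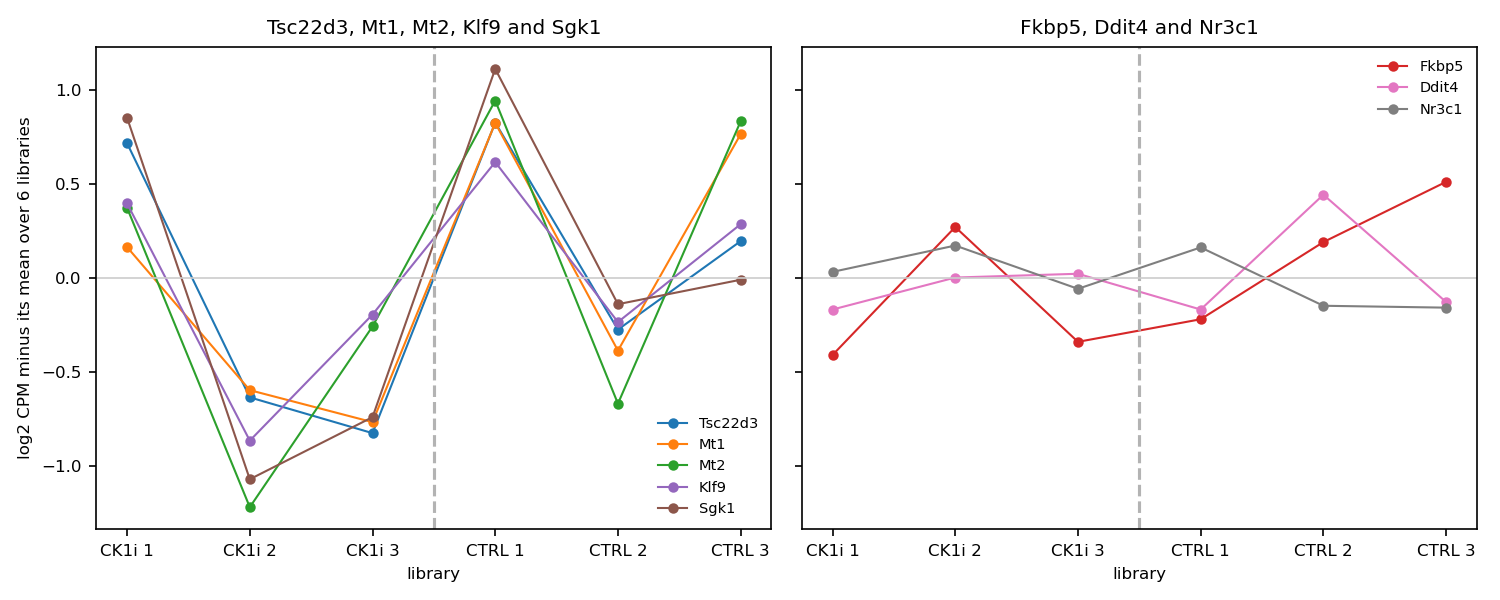
Log2 CPM of each gene minus its mean over the 6 libraries, CK1i libraries left of the dashed line and CTRL libraries right of it; lines only join the points of 1 gene. Left, the 5 genes whose highest libraries were CK1i replicate 1, CTRL replicate 1 and CTRL replicate 3, grouped after their values were seen. Right, Fkbp5, Ddit4 and Nr3c1, which do not share this order.

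The genes closest to Tsc22d3 in profile were not receptor targets from the list. By the root-mean-square difference of centred log2 CPM over 6 libraries, the 5 closest of 7890 candidates were Ddit3 (0.182), Tgif2 (0.208), Rel (0.208), Fos (0.211) and Trib1 (0.22). Ddit3 encodes the stress transcription factor CHOP, Fos an immediate early AP-1 subunit and Rel the NF-kB subunit c-Rel. Ddit3 had 97.4, 43.4 and 41.3 CPM in CK1i replicates 1 to 3 and 88.4, 54.7 and 75.1 CPM in CTRL replicates 1 to 3. Of the set, Sgk1 was closest to Tsc22d3 (0.245, with 11 genes of at least 10 CPM closer), then Klf9 (0.32, with 45 closer) and Mt1 (0.329, with 49 closer).

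Mt1 had other neighbours. The 5 closest were S100a6 (0.175), Dusp3 (0.226), Vamp2 (0.244), F11r (0.254) and Ets2 (0.258). S100a6, which encodes a calcium-binding protein, had 643, 407 and 290 CPM in CK1i replicates 1 to 3 and 1106, 456 and 767 CPM in CTRL replicates 1 to 3. CTRL replicate 1 was highest, as for Mt1. Mt2 had a difference of 0.359 from Mt1, with 44 genes closer.

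Other glucocorticoid targets included genes that followed Tsc22d3 across the libraries and genes that did not. Of 35 genes in this list 18 were tested and 0 passed in either direction, and the median log2 fold change was -0.08, beside -0.00546 over all tested genes. Leaving out CK1i replicate 1 gave a list median of -0.46, and leaving out CK1i replicate 3 gave 0.08. The 2 with the lowest p were Pik3r1, a regulatory subunit of PI3-kinase, with -0.29 ± 0.17 (SE), and Btg2, an antiproliferative gene, with 0.17 ± 0.13 (SE). Their r with Tsc22d3 was 0.89 for Pik3r1 and -0.61 for Btg2. Per1, a clock repressor gene and receptor target, had 117, 31.0 and 33.7 CPM in CK1i replicates 1 to 3 and 114, 45.1 and 119 CPM in CTRL replicates 1 to 3. These are the same high libraries as for Tsc22d3, and the log2 fold change was -0.61 ± 0.72 (SE; edgeR adjusted p = 0.999).

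Dusp1, a phosphatase gene that restrains MAP kinases, had 251, 76.0 and 90.2 CPM in CK1i replicates 1 to 3 and 138, 99.8 and 109 CPM in CTRL replicates 1 to 3. Nfkbia, the gene of the NF-kB inhibitor IkB alpha, had 1400, 708 and 768 CPM in CK1i replicates 1 to 3 and 1101, 831 and 1041 CPM in CTRL replicates 1 to 3. CK1i replicate 1 was the highest library for both, then CTRL replicates 1 and 3, the same high libraries as for Tsc22d3, and the groups overlapped. On the log2 scale CK1i over CTRL was 0.27 ± 0.52 (SE) for Dusp1 and -0.05 ± 0.24 for Nfkbia, neither of which passed. Zbtb16, a strong target in other tissues, had 0 counts in every library. Counting error alone would allow up to 0.979 to 1.2 CPM in a single library, the value of 3 counts. That ceiling holds only if reads of the gene were counted, which was not tested. Jund, of the immediate early list described below, also had 0 counts in every library, while Junb of that list had 267 to 913 CPM. A count of 0 for any gene named here is therefore not evidence that its transcript was absent.

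Across the list of other targets, 8 of 18 tested genes (44.4%) had r of at least 0.8 with Tsc22d3, beside 4.07% of all tested genes. These were Per1, Rhob, Nfkbia, Pik3r1, Zfp36, Rgcc, Irs2 and Dusp1, each named for this property after its value was seen. In the immediate early and dissociation list, which marks handling and activation of cells, 11 of 20 tested genes (55%) reached r of 0.8. Its 25 genes summed to 18269, 8874 and 7276 CPM in CK1i replicates 1 to 3 and 12821, 5819 and 8782 CPM in CTRL replicates 1 to 3. The heat shock genes Hspa1b and Hspa1a, with r of 0.40 and 0.44, were a large and uneven part of these sums. Hspa1b had 3222, 2119 and 849 CPM in CK1i replicates 1 to 3 and 2022, 136 and 773 CPM in CTRL replicates 1 to 3. The 2 lists share 3 genes, Dusp1, Btg2 and Zfp36. Atf3, a stress-induced factor named after its values were seen, had 615, 88.7 and 53.3 CPM in CK1i replicates 1 to 3 and 590, 111 and 308 CPM in CTRL replicates 1 to 3. The part of immediate early induction in the spread of the glucocorticoid targets was not tested. The count of genes with r of at least 0.8 was 0 of 20 tested for the receptor machinery and 0 of 8 for B-cell markers. In the lists described below it was 0 of 10 for repressed genes and 0 of 6 for metal and oxidant response. It was 2 of 14 for FOXO and SGK1 and 1 of 11 each for the mTORC1 and apoptosis lists. For plasma cells it was 1 of 6, and for T cells 1 of 3.

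**Figure D5:**
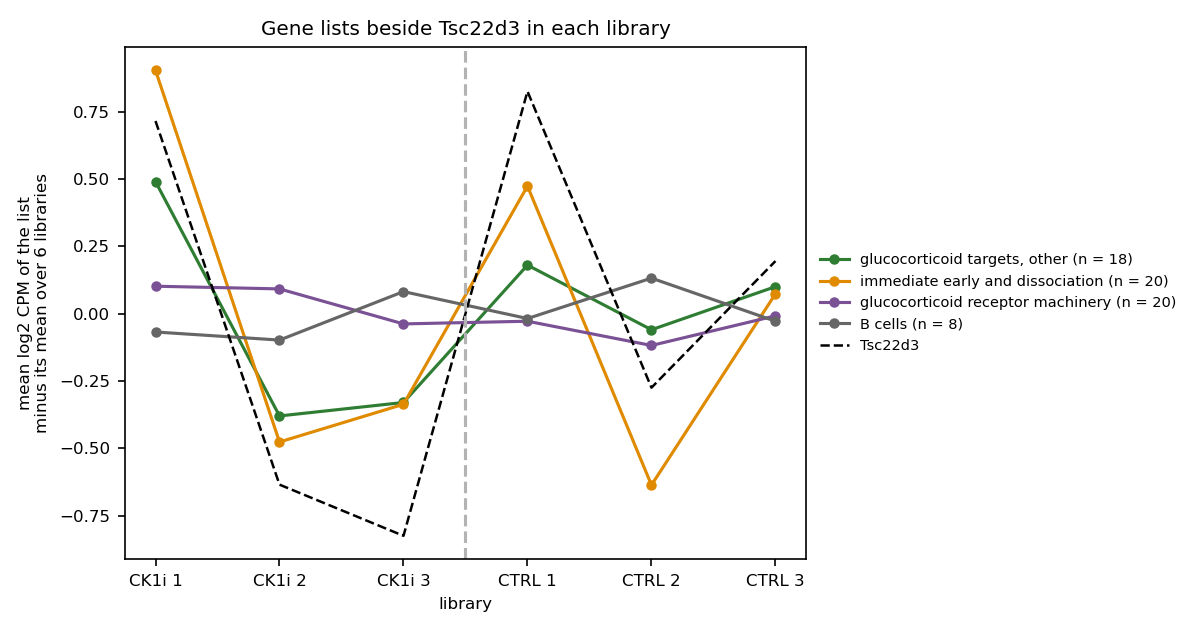
Mean log2 CPM of the tested genes of 4 lists, minus its mean over the 6 libraries, beside Tsc22d3 (dashed); CK1i libraries are left and CTRL libraries right of the vertical line. The immediate early list has its highest score, 9.19, in CK1i replicate 1 and its next, 8.76, in CTRL replicate 1, the libraries where Tsc22d3 is highest too, while the B-cell list stays between 8.81 and 9.04.

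The machinery around the receptor gave 0 of 20 tested genes past the threshold in either direction, and their median log2 fold change was 0.06. With CK1i replicate 1 left out this median was 0.01, and with CTRL replicate 3 left out it was 0.14. The genes with the lowest p were the HSP90 genes Hsp90aa1, with 0.53 ± 0.19 (SE; unadjusted p = 0.0124, edgeR adjusted p = 0.929), and Hsp90b1, an endoplasmic reticulum form, with 0.29 ± 0.16. Fkbp4, the cochaperone that opposes FKBP5, had 204, 206 and 194 CPM in CK1i replicates 1 to 3 and 181, 198 and 225 CPM in CTRL replicates 1 to 3. Hsd11b2, which inactivates corticosterone, had 0 counts, and Hsd11b1, which regenerates it, had 13 counts in all.

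In genes that glucocorticoids repress, 0 of 10 tested passed, with a median of -0.08. With CK1i replicate 1 left out this median was -0.22, and with CK1i replicate 2 left out it was 0.07. Tnf, an inflammatory cytokine, had 0.64 ± 0.30 (SE; unadjusted p = 0.0484, edgeR adjusted p = 0.999), and Cd40, a costimulatory receptor, 0.28 ± 0.15. Of the metal and oxidant response list 0 of 6 tested genes passed, and the zinc exporter gene Slc30a1, another MTF1 target, had 0 counts. Mtf1 itself had 61.5, 52.8 and 46.9 CPM in CK1i replicates 1 to 3 and 59.3, 57.9 and 66.8 CPM in CTRL replicates 1 to 3. Its groups overlapped, as did those of Hmox1, the haem oxygenase gene, with -0.41 ± 0.41 (SE).

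Downstream pathways of the set were also not called. The mTORC1 and DDIT4 list had 0 of 11 tested genes past the threshold, with Eif4ebp1, a translation repressor, at -0.28 ± 0.20 (SE) and Sesn3 at 0.20 ± 0.15. The FOXO and SGK1 list had 0 of 14, and 3 had an unadjusted p under 0.05 in the higher direction, beside 2.7% of tested genes. Of these Bcl6, a FOXO target and germinal centre repressor, had 1.29 ± 0.44 (SE; edgeR adjusted p = 0.929) on 68 counts in all, and Ccng2, a cyclin gene of quiescence, 0.63 ± 0.21. In the apoptosis and lymphocyte list 0 of 11 passed. Bcl2l11, the gene of BIM that glucocorticoids induce in lymphocytes, had 26.98, 40.8 and 30.1 CPM in CK1i replicates 1 to 3 and 61.4, 57.1 and 42.1 CPM in CTRL replicates 1 to 3 (edgeR adjusted p = 0.763). Its groups did not overlap, and its order of libraries differed from that of Tsc22d3. Bbc3, the gene of PUMA, had -0.39 ± 0.20.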

How the data were processed

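Per the labels' protocols, libraries were made with a QuantSeq 3' forward kit with unique molecular identifiers (UMIs) and sequenced as single reads of 75 bases. The authors deposited whole-number counts per gene for the 6 libraries. The submitters' processing notes list UMI-tools 1.1.1, Trimmomatic 0.36, STAR 2.7.3a and featureCounts 1.6.3 with GRCm38.p6, without role or order. UMI collapse and the strand setting of the counting are not given in the sources used here, so intervals and floors cover counting error only.

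Identifiers were matched to GENCODE M21 (GRCm38): 54165 matched and 67 did not. The tests ran in edgeR 4.0.16 under R 4.3.3. There filterByExpr (minimum count 10, minimum total 15) left 10067 genes, TMM scaling was used, and the contrast CK1i over CTRL was tested two-sided with glmQLFTest after a robust quasi-likelihood fit, with Benjamini-Hochberg adjustment over all tested genes and a threshold of 0.05. Log2 CPM used a prior count of 2. Each SE was derived from the log2 fold change and its F value, and the 95% interval uses the fit's degrees of freedom. On data simulated for CK1i against CTRL over 9937 genes, the procedure called 77 of 100 genes changed 2-fold, 99 of 100 changed 4-fold and 6 unchanged genes. The changed genes were drawn at random from the better-counted genes, each with its own spread. These rates are therefore no guide to the widely varying genes of the set, such as Sgk1 (SE 0.64), Tsc22d3 (SE 0.53) and Mt2 (SE 0.49).

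The genes of the set and the lists were chosen with earlier results of these data known. All 8 genes are named, with the 2 lowest p of each pathway list (more where more passed), the 5 closest profiles to Tsc22d3 and to Mt1, and Per1, Zbtb16, Dusp1 and Nfkbia; any other gene was named after its values were seen. Lists were described by counts and medians, without set tests. The list of paralogues had 0 of 19 tested genes past the threshold, led by Sgk3 (log2 fold change 0.29) and Nr3c2 (0.72), and the immediate early list 0 of 20, led by Egr3 (-0.59) and Btg2 (0.17). Correlations across libraries were computed with scipy 1.17.1 and are printed without p-values, although an exact permutation test had been planned, because the genes were chosen by library values. Alternatives were RLE scaling, DESeq2 1.42.0, limma-voom 3.58.1, other filters and leaving out each library.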

Additional observations from a re-analysis of the deposited data

How the results depend on the processing

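No gene of the set was called under any of the 11 alternatives, and 86 of 88 alternative fold changes kept their sign. The exceptions were Sgk1 without CTRL replicate 1 (0.03) and Ddit4 without CTRL replicate 2 (0.10). With 1 library left out, the log2 fold change ranged from -1.05 to -0.05 for Tsc22d3, -1.41 to 0.03 for Sgk1, -1.34 to -0.47 for Mt2, -1.19 to -0.65 for Mt1, -0.81 to -0.14 for Klf9, -0.58 to -0.12 for Fkbp5, -0.23 to 0.10 for Ddit4 and 0.03 to 0.21 for Nr3c1. Over all tested genes, DESeq2 called 6 higher and 2 lower, edgeR with no filter 2 higher and 1 lower, and edgeR with 1 library left out 0 to 1 higher (1 without CK1i replicate 2) and 0 to 1 lower (1 without CTRL replicate 1 and 1 without CTRL replicate 3), where edgeR with all libraries called 0; the cause was not tested. No pathway list gained a call. No list median moved further than that of the immediate early list (-0.52 to 0.24 with 1 library left out), and the mTORC1 list ran from -0.14 to -0.03. The 7 correlations with Tsc22d3 kept their sign under raw totals, RLE scaling and prior counts of 0.5 and 5, and with group means removed. The SD within groups moved by over 1.5 times in 4 of 72 alternatives, all with 1 library left out. No paired analysis was possible because the library names of the 2 groups share no replicate number. Depth limited Mt2, Klf9 and Sgk1 most, at 11 to 107 counts per library.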

Other observations

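Some paralogues of Klf9 had the same 3 highest libraries as Tsc22d3 and Klf9. Klf6, a KLF factor induced early on activation, had 1373, 405 and 256 CPM in CK1i replicates 1 to 3 and 1129, 363 and 848 CPM in CTRL replicates 1 to 3. Klf2, a factor of lymphocyte quiescence and trafficking, had 2783, 1049 and 1104 CPM in CK1i replicates 1 to 3 and 2005, 1287 and 2111 CPM in CTRL replicates 1 to 3. Klf4, a further family member, had 157, 38.8 and 50.1 CPM in CK1i replicates 1 to 3 and 135, 47.5 and 94.1 CPM in CTRL replicates 1 to 3. These genes were named after their values were seen. In Klf13, another KLF gene, the order was different, with 176, 198 and 126 CPM in CK1i replicates 1 to 3 and 151, 157 and 158 CPM in CTRL replicates 1 to 3. Klf3, Klf10, Klf11, Klf12 and Klf16, the other tested KLF genes of the list, did not share these 3 highest libraries either. Of 19 tested paralogues of the set, 4 (21.1%) had r of at least 0.8 with Tsc22d3, beside 4.07% of all tested genes.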
